A study of Danio rerio with 170 samples.

Results

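Cytosolic sulfotransferases are 10 of the 21854 genes measured here in whole zebrafish embryos. The members are sult6b1, sult1st1, sult1st2, sult1st3, sult1st4, sult1st6, sult2st1, sult2st2, sult2st3 and sult4a1, matched to the table by NCBI gene identifier, and all 10 listed genes were found in it. These enzymes move a sulfonate group from the donor PAPS onto hydroxyl or amine groups of small molecules. The reaction is a conjugation step of drug and pollutant metabolism, and it also acts on hormones such as thyroid hormones, estrogens and other steroids. In vertebrates the SULT1 enzymes are known mainly for phenols, the SULT2 enzymes for hydroxysteroids, and SULT4A1 as a conserved brain protein whose activity is little understood.

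RNA from Tropical 5D wildtype embryos was sequenced at 48 hours post fertilization (hpf) after exposure to 33 treatments or to the solvent DMSO in 6 control groups, over 5 exposure studies. The flame retardant (FRC) study held TBBPA and TBBPA-DBPE at 4 µM, TBPH at 72 µM, TCPP, TCEP and BDE-47 at 85 µM, TDBPP at 3 µM, TiBP at 158 µM, IPP at 19.8 µM and TPP at 8 µM, all set against DMSO_FRC at 0.64% DMSO. In the study of polycyclic aromatic hydrocarbons, Retene (12.2 µM), BjF (14.9 µM), BkF (1.9 µM), DBahP (10 µM), DBaiP (5 µM) and 50 µM of BbF, Fluoranthene, Phenanthrene or Acenaphthene were set against DMSO_A. 4h-CPdefP (16.2 µM), 3-NF (1.9 µM) and 50 µM of Carbazole, 1,5-DMN, 9-MA, 2-MN or Anthracene were set against DMSO_B, and both of these control groups had 1% DMSO. Further sets were B[a]P at 10 or 1 µM (B[a]P_10, B[a]P_1) and DBalP at 10 µM against DMSO_PE50_AK, 7,12-B[a]AQ and BEZO at 10 µM and 9,10-PQ at 1.2 µM against DMSO_PE50_BG (1% DMSO each), and TCDD at 1 ng/mL against DMSO_TCDD at 0.1% DMSO. Treatments that share a DMSO group share its libraries, so their fold changes are not independent of each other. For the aromatic hydrocarbons first analysed by the study, 20 embryos were pooled per sample and exposure began at 6 hpf. In whole embryos, fewer cells of a type and less RNA per cell cannot be told apart.

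Each value below is a normalized value per library, that is, the read number divided by the size factor of the library. The 144 libraries (2 to 4 per group) had 6795594 to 28566824 reads on genes. Nothing in the labels says that libraries of a group came from separate clutches, so the p-values measure the spread between these libraries. All 9 measured liver markers and all 9 measured neuron markers had reads in every library, as whole embryos should give. A library was taken to stand apart when the standard deviation of its log2 differences from the other libraries of its group, over 18897 genes, was over 2 times the median of its study. This held for TBBPA library 2 (1.30, against a median of 0.407 in the FRC study), TCEP library 2 (0.962), DMSO_PE50_AK library 3 (0.799, against a study median of 0.333) and Acenaphthene library 4 (0.766, against a study median of 0.338). Calls of the sulfotransferase members that changed without these 4 libraries are given both ways. Calls of other named genes and marker counts are given with all libraries only, so whether they change without these 4 is not shown.

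A gene was called responding when its adjusted p (limma with Benjamini-Hochberg adjustment over all genes of a comparison) was under 0.05, and a differentially expressed gene (DEG) when its absolute log2 fold change was also over 1. Over 330 comparisons of 10 members in 33 treatments, 29 were responding (23 higher, 6 lower), against 4.67% of all gene and treatment combinations. The DEGs numbered 16 (12 higher, 4 lower), against 1.62% over all genes. sult6b1 held 16 of the responding comparisons and 12 of the DEGs, all of them higher. The study itself singled out sult6b1 in these libraries, so its count is not independent evidence. Without the 4 libraries that stand apart, 41 comparisons were responding and 18 were DEGs, and the shares over all genes were then 7.97% and 2.17%.

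**Figure D1:**
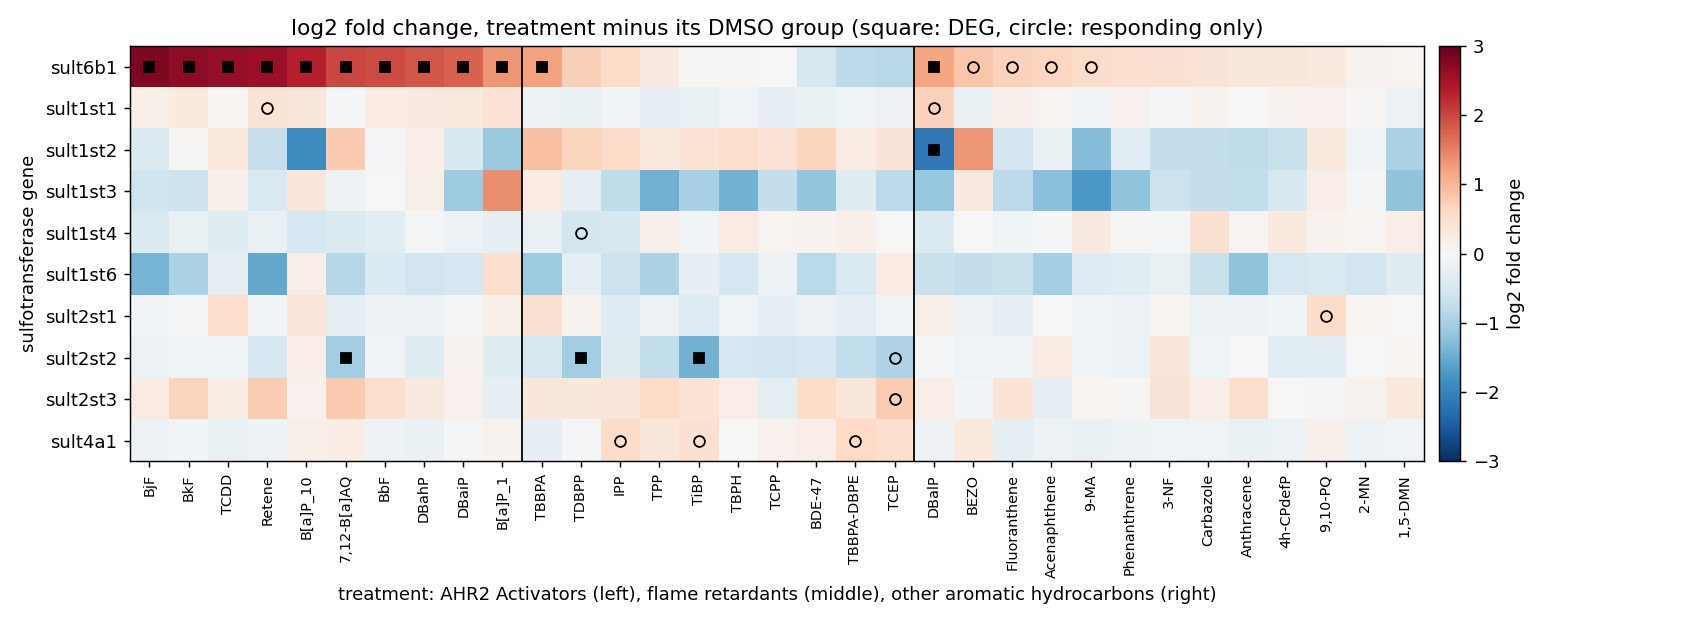
Log2 fold change of each sulfotransferase gene (rows) in each treatment (columns) relative to its own DMSO group, with black squares for DEGs and open circles for genes that were responding only. The 12 DEG squares of sult6b1 fill the block of 10 AHR2 Activators and add TBBPA and DBalP, whereas the 4 DEG squares of the other members are all blue (lower).

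sult6b1, a member of the little-studied SULT6 family, was raised by every one of the 10 treatments that the study lists as AHR2 Activators. AHR2 is the zebrafish form of the aryl hydrocarbon receptor, a transcription factor that binds planar pollutants and switches on metabolic enzymes such as cyp1a. In these 10 treatments the log2 fold change of sult6b1 ran between 1.32 and 2.80 with a median of 2.17, and the median over all genes was 0.00094. No treated library of the 10 groups overlapped its DMSO group. Apart from these libraries, the study measured sult6b1 by qRT-PCR in wildtype and AHR2-null embryos. It reports that TCDD raised sult6b1 in wildtype embryos and left it unchanged in AHR2-null embryos.

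BjF, benzo[j]fluoranthene, gave the highest sult6b1 level of the aromatic hydrocarbon study. Its libraries had 2222, 1960.2, 2137 and 2146 normalized units, against 289, 328 and 294 in DMSO_A. The log2 fold change was 2.80 ± 0.16 (SE, adjusted p = 2.03e-21, n = 4 and 3), with 0.22% of all genes DEGs in the higher direction. BkF, an isomer at a lower dose, had 2596, 1717, 1858 and 1714, with a log2 fold change of 2.67 (0.233% of genes were higher DEGs). Library 1 of BkF stood above the other 3, and without the libraries numbered 1 the log2 fold change was 2.53. Retene had 1813, 1920.0, 1923 and 1573 (log2 fold change 2.57, 0.265% of genes higher DEGs). BkF overlapped with both BjF and Retene, while every BjF library lay above every Retene library.

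The other 3 AHR2 Activators of this study formed a lower tier. BbF had 1145, 1458 and 962 normalized units of sult6b1, DBahP had 1112, 1291, 963 and 1072, and DBaiP had 978, 1054, 1128 and 1008. Their log2 fold changes were 1.95 ± 0.17 in BbF, 1.86 ± 0.16 in DBahP and 1.78 ± 0.16 in DBaiP (SE), where 0.0961%, 0.128% and 0.0915% of all genes were higher DEGs. These 3 groups overlapped with each other, and each lay below every library of BjF, BkF and Retene. The doses differed, so these levels stand side by side without a test between compounds.

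In the smaller studies the same gene rose by similar steps. B[a]P_10 libraries had 2051, 2210.0 and 2043 normalized units of sult6b1 and B[a]P_1 libraries 983, 976 and 1160.2, against 453, 433 and 366 in DMSO_PE50_AK. The log2 fold change was 2.34 ± 0.13 in B[a]P_10 (0.398% of genes higher DEGs) and 1.32 ± 0.13 in B[a]P_1 (0.0961%). Both doses thus lay above the control, and the higher dose lay above the lower one in every library. The B[a]P_10 and DMSO_PE50_AK libraries shared 1 lane, and all B[a]P_1 and DBalP libraries were on another. Lane therefore cannot be told apart from treatment for B[a]P_1 and DBalP against DMSO_PE50_AK, in any member, nor from dose between B[a]P_1 and B[a]P_10. Without DMSO_PE50_AK library 3 the log2 fold changes were 2.24 and 1.23.

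7,12-B[a]AQ, an oxygenated aromatic hydrocarbon, had 1648, 1941 and 1799 normalized units of sult6b1, against 456, 433 and 452 in DMSO_PE50_BG (log2 fold change 2.00 ± 0.08 SE, 0.737% of genes higher DEGs). TCDD, the dioxin used as a reference AHR ligand, had 632, 894, 738 and 706, against 107, 89.1, 108 and 193 in DMSO_TCDD. Its log2 fold change was 2.62 ± 0.21 (SE, adjusted p = 5.69e-05, n = 4 each), and 0.297% of genes were higher DEGs. The TCDD libraries all lay below every library of the other AHR2 Activators, yet their control group was also the lowest of the 6, with a mean of 124 ± 46.6 (SD) against 276 to 447 in the other 5.

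**Figure D2:**
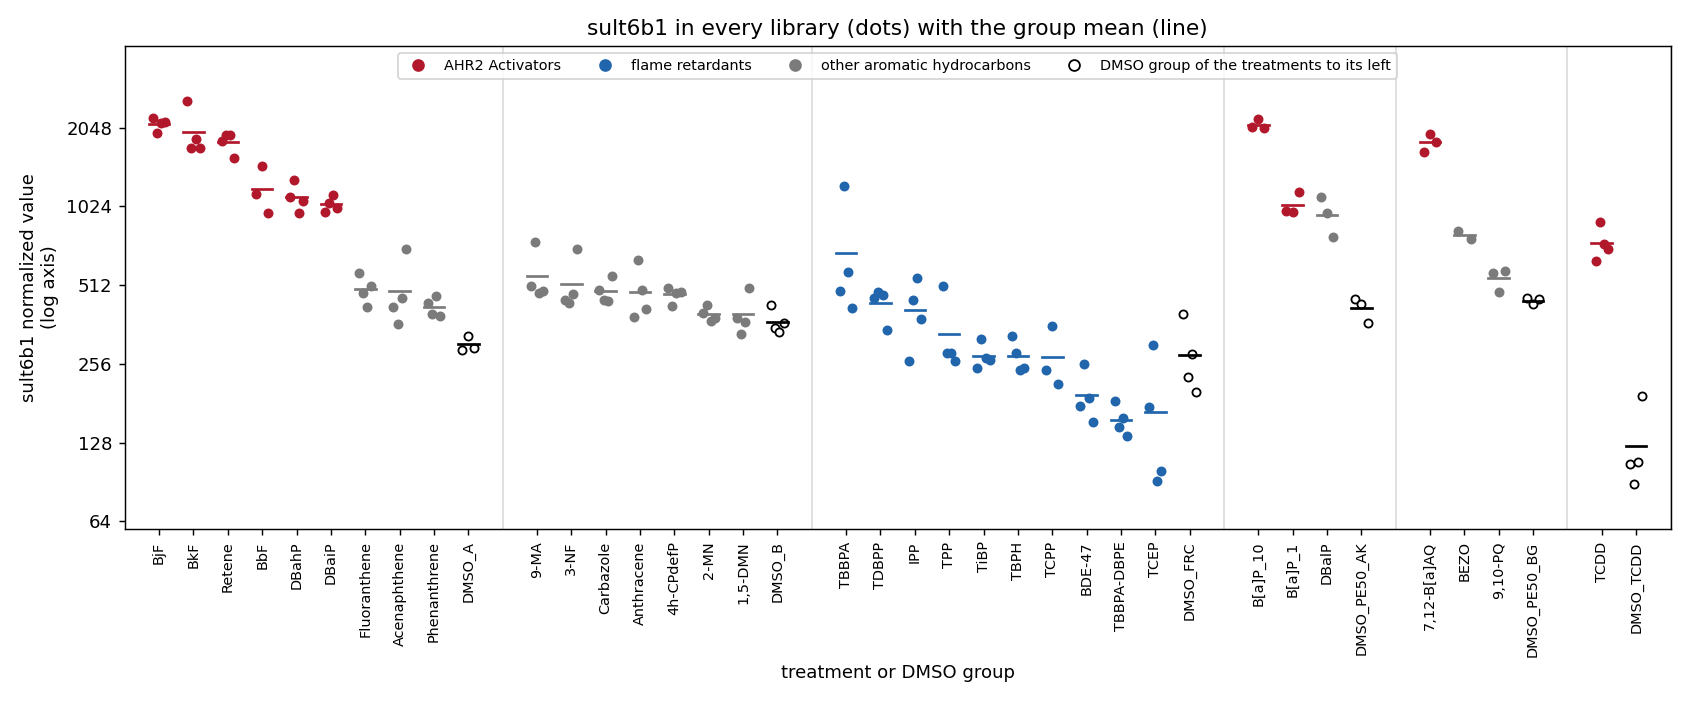
Normalized value of sult6b1 (log axis) in each library, with treatments placed left of the DMSO group they were compared with and horizontal lines at the group means. BjF averaged 2116 normalized units, against 304 in DMSO_A, and TCEP averaged 167, against 276 in DMSO_FRC.

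Outside the AHR2 Activators sult6b1 was responding in 6 of 23 treatments, all higher, and a DEG in 2, DBalP and TBBPA. DBalP, dibenzo[a,l]pyrene, had 1113, 962 and 779 normalized units, against 453, 433 and 366 in DMSO_PE50_AK, with a log2 fold change of 1.18 ± 0.13 (SE, adjusted p = 1.19e-05). Without DMSO_PE50_AK library 3 it was 1.09 (adjusted p = 1.68e-08). DBalP changed the transcriptome broadly, since 3.82% of all genes were higher DEGs and 13.7% were responding higher. BEZO libraries had 822 and 766 normalized units of sult6b1, against 456, 433 and 452 in DMSO_PE50_BG (log2 fold change 0.83 ± 0.09 SE, adjusted p = 1.59e-05, 1.69% of genes responding higher). BEZO lost this call when all studies were fitted together (adjusted p = 0.222).

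A smaller step was seen with 3 aromatic hydrocarbons of the 50 µM set. Fluoranthene had 567, 480, 423 and 508 normalized units of sult6b1, against 289, 328 and 294 in DMSO_A (log2 fold change 0.70 ± 0.16 SE, adjusted p = 0.0311, 0.0778% of genes responding higher). Acenaphthene had 423, 364, 458 and 703 (log2 fold change 0.64 ± 0.16 SE, adjusted p = 0.0441, 0.494% of genes responding higher). 9-MA had 509, 748, 477 and 486, against 430, 351, 338 and 367 in DMSO_B (log2 fold change 0.56 ± 0.15 SE, adjusted p = 0.0223, 1.13% of genes responding higher). In all 3 the treated libraries lay above the controls, but each call was lost under some alternatives. Without the libraries that stand apart, the Acenaphthene value was 0.45 with an adjusted p of 0.439, and its call was also lost without control number 2, 3 or 4 (0.60 to 0.69). Leaving a library number out of all treatment groups or all DMSO groups at once took away the Fluoranthene call for treatment numbers 1 and 3 and control numbers 2, 3 and 4 (log2 fold change 0.63 to 0.77, close to the value with all libraries), and over the alternatives its adjusted p ran from 0.0101 to 0.421. The 9-MA call was lost without treatment number 1 or 2 or control number 2, 3 or 4 (0.41 to 0.59), with an adjusted p of 0.000492 to 0.218 over the alternatives. For Acenaphthene the range was 0.00935 to 0.474.

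The other 8 aromatic hydrocarbons did not pass the test for sult6b1. 9,10-PQ had 571, 482 and 581 normalized units, all above the 433 to 456 of DMSO_PE50_BG, with a log2 fold change of 0.28 (adjusted p = 0.0524). Phenanthrene, 3-NF, Carbazole, Anthracene and 4h-CPdefP had log2 fold changes of 0.35 to 0.47, and 1,5-DMN and 2-MN had 0.08 and 0.10. All 13 values outside the AHR2 Activators among aromatic hydrocarbons were above 0. The methylated naphthalenes were thus nearest to their control in sult6b1.

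The flame retardants split in direction. TBBPA, tetrabromobisphenol A, had 488, 1227, 577 and 417 normalized units of sult6b1, against 398, 228, 279 and 199 in DMSO_FRC. The log2 fold change was 1.21 ± 0.29 (SE, adjusted p = 0.0063, n = 4 each), and 2.04% of all genes were higher DEGs. TBBPA library 2, one of those that stand apart, set much of this size. Without these libraries the log2 fold change of TBBPA was 0.88 ± 0.24 (adjusted p = 0.0154), so that it stayed responding and was no longer a DEG.

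TCEP, a chloroalkyl phosphate, went the other way. Its libraries had 175, 303, 91.0 and 99.6 normalized units of sult6b1, against 398, 228, 279 and 199 in DMSO_FRC (log2 fold change -0.84 ± 0.29 SE, adjusted p = 0.0605). TCEP library 2 was the highest of the 4 and also stands apart. Without the libraries that stand apart the log2 fold change of sult6b1 in TCEP was -1.18 ± 0.24 (adjusted p = 0.000283), which makes it a DEG, so that the 12 DEGs of sult6b1 became 11 higher and 1 lower. TBBPA-DBPE had 184, 147, 158 and 136, each below every DMSO_FRC library, with a log2 fold change of -0.77 ± 0.29 (adjusted p = 0.0744, and 0.00943 without the libraries that stand apart). For BDE-47 the value was -0.48 ± 0.29 (adjusted p = 0.453). TDBPP had 0.70 (adjusted p = 0.0718, and 0.0118 without the libraries that stand apart), IPP had 0.57 (adjusted p = 0.197), TPP had 0.26, and TBPH, TiBP and TCPP were within 0.04 of 0.

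The study's yardstick for AHR activity, cyp1a, is a cytochrome P450 that oxidizes planar hydrocarbons. cyp1a was a DEG in 17 of 33 treatments, all higher, and its log2 fold change in the AHR2 Activators ran between 5.13 and 7.90. The log2 fold changes of sult6b1 and cyp1a had a Pearson correlation of 0.934 over the 33 treatments, 0.882 within the 10 AHR2 Activators, 0.75 within the 10 flame retardants and 0.650 within the 13 other aromatic hydrocarbons. These are descriptions, since treatments share control libraries. The step of sult6b1 was smaller throughout the AHR2 Activators. TBBPA was the point that lay apart, since cyp1a there had 105, 108, 100.1 and 92.1 normalized units, against 85.0, 70.1, 96.6 and 69.7 in DMSO_FRC (log2 fold change 0.34 ± 0.27 SE, adjusted p = 0.453), while sult6b1 was a DEG. Acenaphthene likewise had a cyp1a value short of the threshold (0.72 ± 0.42, adjusted p = 0.303). In 9,10-PQ, Carbazole and 4h-CPdefP the pattern was the reverse, with cyp1a a DEG (1.25, 2.15 and 1.61) and sult6b1 not responding.

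**Figure D3:**
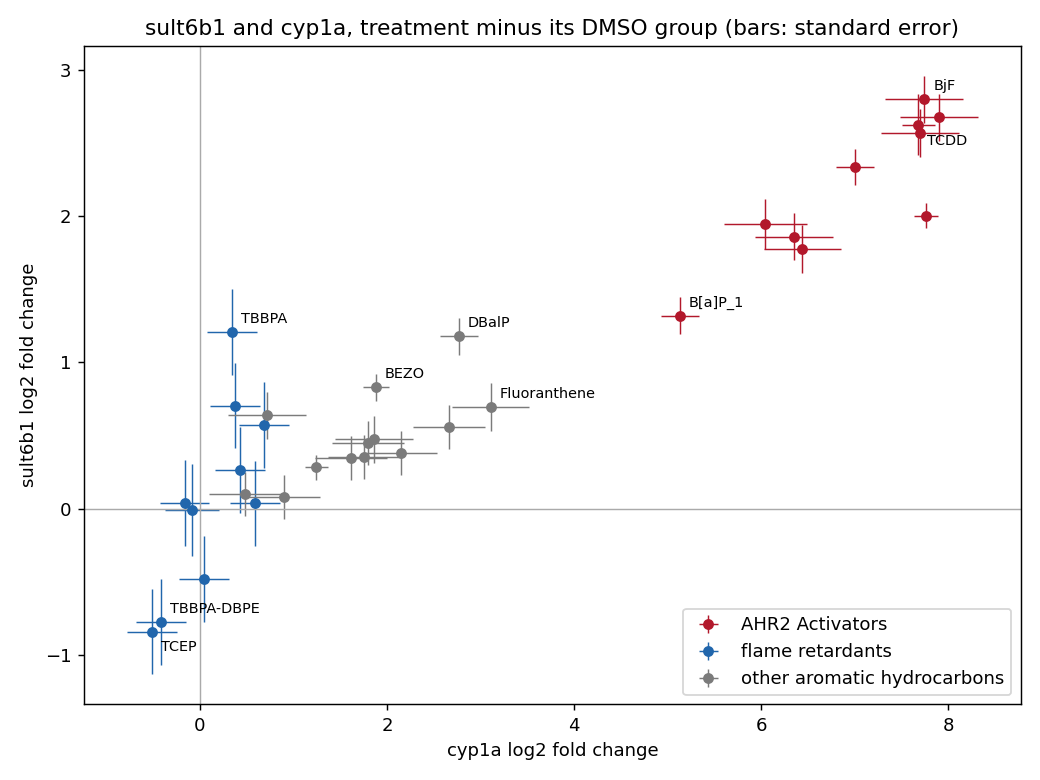
Log2 fold change of sult6b1 (y axis) against that of cyp1a (x axis) for the 33 treatments, each relative to its DMSO group, with standard errors as bars and colours for the 3 chemical classes. The AHR2 Activators run up to 7.90 for cyp1a and 2.80 for sult6b1, and TBBPA sits at 0.34 for cyp1a and 1.21 for sult6b1.

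Over the 33 treatments the genes with the pattern most like sult6b1, by Pearson correlation of log2 fold changes, were cyp1a (0.934), LOC110366352 (0.926), LOC100151490 (0.923), wfikkn1 (0.906) and ahrra (0.901), the last of which encodes a repressor of AHR. Among all genes, 9 (0.0412%) were DEGs in 12 or more treatments, as sult6b1 was. The other members did not share this pattern to the same degree. Their correlation with sult6b1 was highest for sult1st1 (0.618) and lowest for sult1st4 (-0.662), again over 33 treatments that share controls and libraries.

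The other 9 members were responding in 13 of 297 comparisons (7 higher, 6 lower) and DEGs in 4, all lower. Set against the 4.67% and 1.62% over all genes, these shares are near the background. Without the libraries that stand apart they were responding in 23 of 297 (10 higher, 13 lower) and DEGs in 6, all lower, against 7.97% and 2.17% over all genes. Calls gained that way and not named further on were sult1st4 in IPP (-0.48, adjusted p = 0.0172) and DBalP (-0.52, adjusted p = 0.0484) and sult2st1 in TiBP (-0.38, adjusted p = 0.0398) and IPP (-0.39, adjusted p = 0.0403). Reads set a limit for 3 of them. sult1st3, sult1st2 and sult1st6 had a median of 3, 7 and 10 reads per library, and 18, 3 and 1 of the 144 libraries had none. Their median SE of a log2 fold change was 0.68, 0.48 and 0.45, compared with 0.09 to 0.25 for the other 7 members. Changes well over 1 on the log2 scale could thus go uncalled in these 3 genes. For sult1st2 in B[a]P_10 the log2 fold change was -1.91 (adjusted p = 0.239), and sult1st3 reached -1.73 without a call. sult1st1 lies next to sult1st2 and sult1st9, and sult2st1 next to sult2st2, in the RefSeq annotation of GRCz12tu. How reads that fit several such relatives were counted is not given in the sources used here, so a split of reads between relatives was not tested.

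sult1st1, a SULT1 enzyme for phenols and the member with the most reads, was responding in 2 treatments, both higher. Retene libraries had 1685, 1616, 1442 and 1764 normalized units, against 1342, 1218 and 1114 in DMSO_A (log2 fold change 0.41 ± 0.09 SE, adjusted p = 0.00363, 0.668% of genes responding higher). The call was lost without control number 4 (0.34, adjusted p = 0.0978), with a range of 0.00133 to 0.347 over the alternatives. DBalP libraries had 826, 834 and 862, against 451, 437 and 721 in DMSO_PE50_AK (log2 fold change 0.69 ± 0.15 SE, adjusted p = 0.00289). The high DMSO_PE50_AK value, 721, belongs to library 3, which stands apart. Without it sult1st1 had a log2 fold change of 0.92 in DBalP, 0.57 in B[a]P_10 and 0.66 in B[a]P_1, and the adjusted p-values were 4.26e-09, 0.000108 and 2.47e-05. With it, B[a]P_10 and B[a]P_1 had 0.34 and 0.43 (adjusted p = 0.306 and 0.216). In the AHR2 Activators as a group the log2 fold change of sult1st1 was above 0 in 9 of 10, with a median of 0.28, whereas it was below 0 in all 10 flame retardants, with a median of -0.18. No flame retardant was responding. The 10 flame retardants share 4 control libraries, of which library 1 was the highest at 2189 normalized units. Several AHR2 Activators share a DMSO group too, so these signs are not independent of each other.

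The remaining SULT1 genes gave 2 calls, both lower. sult1st2 had 0, 1.5 and 2.98 normalized units in DBalP, against 15.3, 5.52 and 6.96 in DMSO_PE50_AK (log2 fold change -2.14 ± 0.71 SE, adjusted p = 0.0363). These are a handful of reads, and 3.26% of all genes were lower DEGs in DBalP. The call was lost without treatment number 1, 2 or 3 or control number 1 (-2.58 to -1.58), with an adjusted p of 0.00598 to 0.183 over the alternatives. Without DMSO_PE50_AK library 3 it was -2.26 (adjusted p = 0.0225). sult1st4 had 222, 112, 142 and 177 in TDBPP, against 194, 232, 231 and 280 in DMSO_FRC (log2 fold change -0.55 ± 0.17 SE, adjusted p = 0.0171, 11.8% of genes responding lower). The groups overlapped, and the call was lost without treatment number 3 or control number 4 (-0.50 and -0.46, adjusted p from 0.00166 to 0.0913 over the alternatives). Across the AHR2 Activators sult1st4 was below its control in all 10, by a median of -0.30, with none responding. Several of the 10 share a DMSO group, so these signs are not independent of each other. sult1st3 and sult1st6 had no call. For sult1st6 the 4 Retene libraries had 6.34, 6.84, 3.28 and 0.79 normalized units, against 17.1, 12.8 and 8.23 in DMSO_A (log2 fold change -1.52 ± 0.42 SE, adjusted p = 0.0519, and 0.0455 without the libraries that stand apart).

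sult2st2, a SULT2 family enzyme, was the member with the most calls in the lower direction. TiBP libraries had 33.5, 24.0, 25.1 and 32.1 normalized units, against 103, 66.1, 77.3 and 68.8 in DMSO_FRC (log2 fold change -1.42 ± 0.29 SE, adjusted p = 0.000417, 2.23% of genes lower DEGs). TDBPP had 30.5, 38.9, 46.6 and 34.4 (log2 fold change -1.04 ± 0.29 SE, adjusted p = 0.00585, 3.82% of genes lower DEGs). In both treatments every library lay below every DMSO_FRC library, and both stayed responding under all 18 alternatives that bear on the FRC study. For TDBPP the log2 fold change was smaller than 1 in size, -0.91 at the least, under some of them.

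TCEP had 36.6, 74.4, 43.6 and 23.9 normalized units of sult2st2 (log2 fold change -0.90 ± 0.29 SE, adjusted p = 0.0383, 4.61% of genes responding lower). Its library 2 stands apart and alone overlapped with DMSO_FRC, and without the libraries that stand apart the log2 fold change was -1.18 (adjusted p = 0.00075). The call was lost without treatment number 1, 3 or 4 or control number 1 or 3 (-0.93 to -0.65, adjusted p from 0.00075 to 0.222 over the alternatives). In all 10 flame retardants sult2st2 had a log2 fold change below 0, with a median of -0.66, while the median over all genes was 0.0079. Without the libraries that stand apart sult2st2 was also responding in TPP (-0.73, adjusted p = 0.0427) and TBBPA-DBPE (-0.75, adjusted p = 0.0207). The 10 share 4 control libraries, and the highest of these, 103, is library 1.

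Outside the flame retardants sult2st2 was a DEG once. 7,12-B[a]AQ libraries had 27.1, 15.6 and 19.6 normalized units, against 43.4, 52.3 and 35.1 in DMSO_PE50_BG (log2 fold change -1.05 ± 0.27 SE, adjusted p = 0.0178, 0.517% of genes lower DEGs). The call was lost without treatment number 2 (-0.87, adjusted p = 0.111) or control number 1 or 2 (-1.04 and -0.91), and its adjusted p ran from 0.0062 to 0.111. Some liver markers were responding in the same treatments. Of the 9 measured, 7 were responding lower in 7,12-B[a]AQ and none higher, 4 were lower in TDBPP, 2 in TiBP and 2 in TCEP, and none was higher in these. TBBPA-DBPE, where the sult2st2 call depended on the libraries that stand apart, had 4 lower as well. TBBPA went the other way by calls, with 3 markers responding higher and none lower, while sult2st2 had -0.48 there (adjusted p = 0.305). The summed level of the 9 markers in TBBPA was 12250 to 26990 with a median of 13077, against 13080.4 to 17138 in DMSO_FRC. TBBPA library 2 stands apart, and the marker counts are given with all libraries only. Of all genes, 11.8% were responding lower in TDBPP and 4.61% in TCEP. The share responding lower is not given here for 7,12-B[a]AQ, TiBP or TBBPA-DBPE, nor the share responding higher for TBBPA. The marker counts in those treatments have no background of their own. Over the 33 treatments these 9 markers were responding in 10.4% of 297 comparisons (8 higher, 23 lower), against 4.67% over all genes. Their summed level was 12198 to 14197 in 7,12-B[a]AQ, against 18198 to 20623 in DMSO_PE50_BG, and 8152 to 11347 in TiBP, 7694 to 9394 in TDBPP and 7780.5 to 14058 in TCEP, against 13080.4 to 17138 in DMSO_FRC. These sums weigh most on tfa, which had the highest median of the 9 (6982 normalized units) and a log2 fold change of -1.69 in TiBP. The median log2 fold change of the 9 markers was -0.51 in 7,12-B[a]AQ, -0.47 in TDBPP and -0.47 in TCEP, and 0.18 in TiBP, the treatment with the deepest fall of sult2st2. Among the genes most like sult2st2 over the 33 treatments were tfa (0.821) and vtnb (0.814), which encode the plasma proteins transferrin and vitronectin made by the liver, next to dctn2 (0.830). Lower calls were not limited to liver markers. In TDBPP 8 of 9 neuron, 4 of 5 intestine and 2 of 3 blood markers were responding lower, and in TiBP 5 of 9 neuron markers. In 7,12-B[a]AQ 2 of 5 intestine markers and 0 of 9 neuron markers were lower. In TCEP 1 neuron and 1 intestine marker were responding higher and none of either list lower. The part of liver tissue in the sult2st2 values was not tested.

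With all libraries, the calls of the other SULT2 genes were in the higher direction. Without the libraries that stand apart, sult2st1 was responding lower in TiBP and IPP (-0.38 and -0.39). sult2st3 had 62.3, 70.3, 45.9 and 50.5 normalized units in TCEP, against 28.3, 32.1, 43.7 and 30.3 in DMSO_FRC (log2 fold change 0.75 ± 0.22 SE, adjusted p = 0.0242, 4.76% of genes responding higher). All 4 TCEP libraries lay above the control, and without the libraries that stand apart the log2 fold change was 0.65 (adjusted p = 0.027). The call was lost without treatment number 1 or 4 or control number 1 or 4 (0.68 to 0.80), and its adjusted p ran from 0.0139 to 0.124. TCEP as a group thus had sult2st2 lower and sult2st3 higher. Its library 2 had 74.4 normalized units of sult2st2, within the DMSO_FRC range of 66.1 to 103, and the highest sult2st3 value, 70.3. sult2st1 had 172, 187 and 176 in 9,10-PQ, against 135, 118 and 114 in DMSO_PE50_BG (log2 fold change 0.54 ± 0.14 SE, adjusted p = 0.0224, 2.84% of genes responding higher). That call was lost without treatment number 1 or 2 or control number 2 or 3 (0.49 to 0.56). All DMSO_PE50_BG libraries were on lane 1 and no 9,10-PQ library was, and with lane as a block, which 7,12-B[a]AQ libraries on lanes 1 and 2 allowed, the log2 fold change was 0.62 ± 0.29 with no call (adjusted p = 0.281). The adjusted p ran from 0.00475 to 0.281 over the alternatives.

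sult4a1, the neuronal member in mammals, was responding in 3 flame retardants, all higher. IPP libraries had 561, 559, 504 and 644 normalized units, against 289, 403, 415 and 448 in DMSO_FRC (log2 fold change 0.56 ± 0.17 SE, adjusted p = 0.0211, 8.51% of genes responding higher). TBBPA-DBPE had 584, 542, 558 and 652 (log2 fold change 0.60 ± 0.17 SE, adjusted p = 0.0188, 6.72% of genes responding higher). TiBP had 616, 392, 608 and 541 (log2 fold change 0.47 ± 0.17 SE, adjusted p = 0.0466, 10.9% of genes responding higher). In IPP and TBBPA-DBPE all 4 libraries exceeded every control library, while TiBP library 2 did not.

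The sult4a1 calls leaned on few libraries. DMSO_FRC library 1, at 289, was the lowest of its group, and without control number 1 the log2 fold changes were 0.42 in IPP, 0.47 in TBBPA-DBPE and 0.33 in TiBP (adjusted p = 0.127, 0.128 and 0.218). Each was also lost without treatment number 1, 3 or 4, and TiBP without control number 2 or 3 and with upper quartile rescaling as well. Their adjusted p-values ran from 0.00103 to 0.127, from 0.000515 to 0.128 and from 0.000957 to 0.218 over the alternatives. TCEP had 529, 502, 567 and 556 (log2 fold change 0.49, adjusted p = 0.0602, and 0.00692 without the libraries that stand apart). Neuron markers did not rise with the 3 calls. Of the 9 measured, 2 were responding lower in IPP, 1 in TBBPA-DBPE and 5 in TiBP, none was higher in these, and their summed level was 39669 to 51574 in IPP, 48131 to 52688 in TBBPA-DBPE and 43315 to 47585 in TiBP, against 50509.7 to 54281 in DMSO_FRC. In TCEP 1 neuron marker was responding higher and none lower, with a summed level of 41139 to 56349. These sums weigh most on elavl3, which had the highest median of the 9 (24130 normalized units). Over the 33 treatments the 9 neuron markers were responding in 14.1% of 297 comparisons (1 higher, 41 lower), against 4.67% over all genes. The shares of all genes responding lower in IPP, TBBPA-DBPE and TiBP are not given here, so the marker counts there have no background of their own. The part of neural tissue in the sult4a1 values was not tested. The genes most like sult4a1 were qki2 (0.924), avl9 (0.920) and tlcd4a (0.910), none of them a DEG in any treatment.

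**Figure D4:**
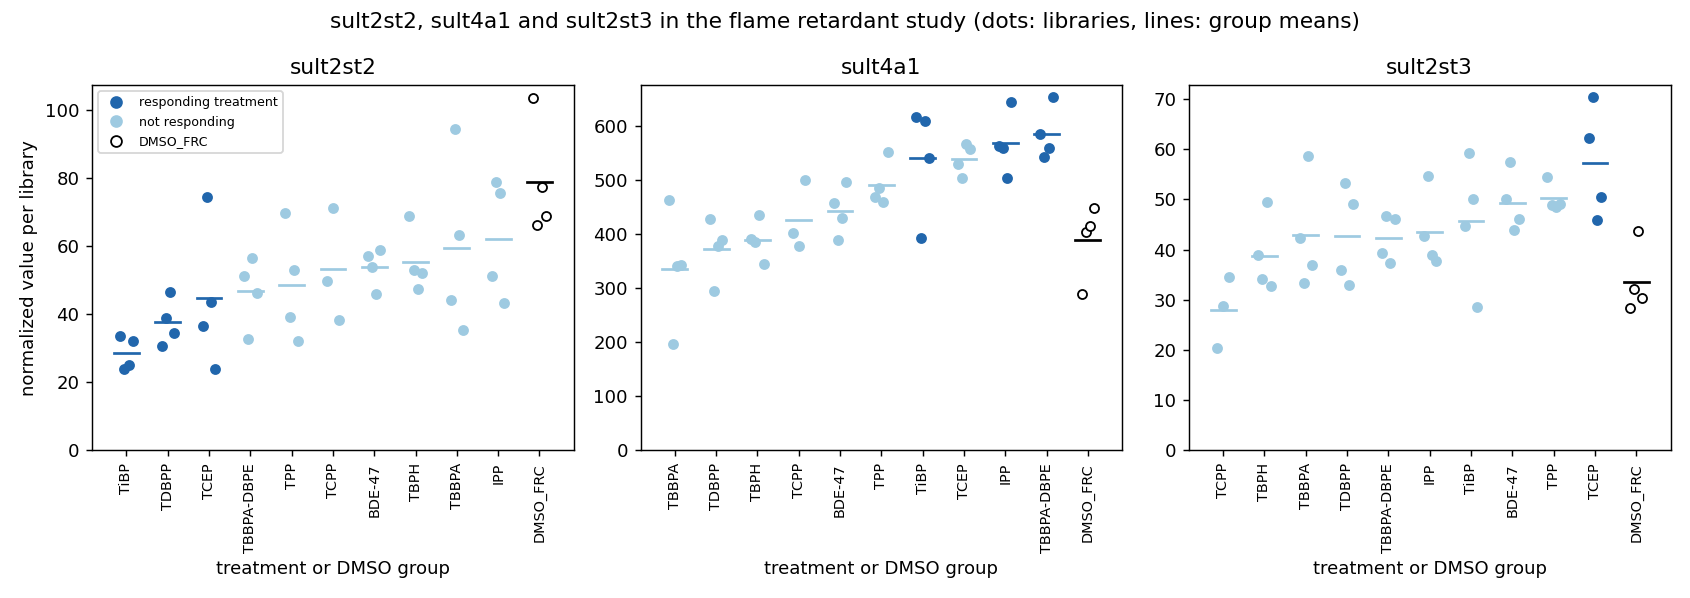
Normalized values of sult2st2, sult4a1 and sult2st3 per library in the flame retardant study, with treatments ordered by log2 fold change, DMSO_FRC at the right, dark points for responding treatments and lines for group means. sult2st2 averaged 28.7 in TiBP, against 78.9 in DMSO_FRC, sult4a1 averaged 584 in TBBPA-DBPE, against 389, and sult2st3 averaged 57.3 in TCEP, against 33.6.

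In the wider sulfonation pathway few genes were DEGs. PAPS synthases, which make the sulfonate donor, were responding in 5 of 99 comparisons (1 higher, 4 lower), which is 5.05% against 4.67% over all genes, and never DEGs. Carriers of sulfate and PAPS were responding in 2 of 165 (1 higher, 1 lower, or 1.21%) with no DEG. PAP-removing enzymes were responding in 4 of 66 (3 higher, 1 lower, or 6.06%), with bpnt1 in TBBPA as the single DEG (1.19, adjusted p = 0.0151). Tyrosylprotein sulfotransferases of the Golgi were responding in 2 of 99, both lower (2.02%). The 6 other measured cytosolic sulfotransferases were responding in 3.03% of 198 comparisons and DEGs in 2.02%, against 4.67% and 1.62% over all genes. Of these 6 genes, 3 were DEGs in any treatment. They were sult3st3 in 2 (lower), sult1st5 in 1 (lower) and sult5a1 in 1 (higher), at a median of 2.16, 7.07 and 3.29 normalized units. Sulfatases, which remove sulfate, had 8 responding comparisons of 330, all lower (2.42%, against 4.67% over all genes). Their 4 DEGs (1.21%, against 1.62%) were all arsia, an arylsulfatase gene with a median of 9.34 normalized units. arsia had log2 fold changes of -1.35 in TBBPA, -1.74 in TiBP, -1.17 in IPP and -1.24 in TBBPA-DBPE (adjusted p = 0.0284, 0.00183, 0.043 and 0.0379). The SE was 0.40 in each, and all were set against the same DMSO_FRC libraries.

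Sulfur supply and the gene family of glucuronidation, the parallel conjugation route, held more calls. Genes of sulfite oxidation and the cysteine route were responding in 33 of 231 comparisons (30 higher, 3 lower, or 14.3% against 4.67% over all genes), with 9 DEGs, all higher (3.90% against 1.62%). ethe1, a mitochondrial enzyme of sulfide oxidation, was a DEG in 5 treatments, all higher, with log2 fold changes of 1.31 in Retene, 1.37 in BjF, 1.24 in B[a]P_10, 1.12 in BEZO and 1.20 in 7,12-B[a]AQ. Among 15 measured genes of the UDP-glycosyltransferase (ugt) family, ugt8 included, 34 of 495 comparisons were responding higher and 6 lower, with 26 DEGs higher and 2 lower. These are 8.08% responding and 5.66% DEGs, against 4.67% and 1.62% over all genes. ugt1a7 alone was a DEG in 16 treatments, all higher, and ugt2b1 in 6, all higher and all flame retardants. Treatments in which both sult6b1 and ugt1a7 were DEGs numbered 10, which is 10 of 12 for sult6b1 and 10 of 16 for ugt1a7. ugt1a7 and not sult6b1 was a DEG in TDBPP, TiBP, IPP, TPP, BEZO and 4h-CPdefP, with log2 fold changes of 1.35, 2.23, 2.80, 2.27, 1.59 and 1.14. Whether the 2 genes differ in these treatments was not tested.

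In 8 pairs of related compounds given at a matched dose within a study, the difference between the 2 log2 fold changes was tested for each member, which made 80 contrasts. Of these, 7 had an adjusted p under 0.05 over all genes of the contrast, and 10 when the 8 pairs of a member were adjusted together. In the pairs with a called member, the share of all genes past the test ran from 0.329% to 25.1%, so the 7 have no single background. sult6b1 accounted for 4 of the 7.

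Fluoranthene with a further benzo ring, as in BbF, had the higher sult6b1 response. BbF had a log2 fold change of 1.95 and Fluoranthene 0.70 at 50 µM, a difference of 1.25 (95% interval 0.93 to 1.57, adjusted p = 5.61e-07), with 0.329% of all genes past the test in this contrast. Among pyrenes the further benzo ring went with the lower response. DBalP had 1.18 and B[a]P_10 2.34 at 10 µM, a difference of -1.16 (95% interval -1.43 to -0.89, adjusted p = 1.75e-05, 20.7% of all genes past the test). DBalP and B[a]P_10 were sequenced on different lanes, so lane and compound cannot be told apart in that pair. The shared DMSO group cancels in this pair, so leaving out DMSO_PE50_AK library 3 alters the spread and not the differences. These were 0.35 for sult1st1 and -0.32 for sult4a1. Their adjusted p-values were 0.11 and 0.116 with all libraries, and 0.000663 and 0.0183 without that library. The quinone 7,12-B[a]AQ had 2.00 and the ketone BEZO 0.83 at 10 µM, a difference of 1.17 (95% interval 0.98 to 1.37, adjusted p = 1.13e-07, 1.85% of all genes past the test). These 3 differences kept their call under the 15 to 19 alternatives that bear on their studies.

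The brominated bisphenol pair differed in 3 of the 10 members. That share is near the 25.1% of all genes that passed the test in this contrast. TBBPA-DBPE, an ether of TBBPA, had a sult6b1 log2 fold change of -0.77, against 1.21 in TBBPA at 4 µM, a difference of -1.98 (95% interval -2.57 to -1.39, adjusted p = 9.91e-06). sult2st1 differed by -0.71 (95% interval -1.06 to -0.36, adjusted p = 0.0029) and sult4a1 by 0.86 (95% interval 0.52 to 1.20, adjusted p = 0.00046). Without the libraries that stand apart the 3 differences were -1.65, -0.56 and 0.62 (adjusted p = 5.48e-06, 0.0069 and 0.00242), and sult1st1 differed as well (-0.41, adjusted p = 0.00872, against 0.03 with all libraries). Neither sult2st1 nor sult4a1 was responding in TBBPA itself, where their log2 fold changes were 0.45 and -0.26.

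TCPP, which carries an added methyl group on each arm of TCEP, had a sult2st3 log2 fold change of -0.27, against 0.75 in TCEP at 85 µM, a difference of -1.02 (95% interval -1.50 to -0.54, adjusted p = 0.0362, 0.448% of all genes past the test). The call was lost without treatment number 1, 2, 3 or 4 (-1.24 to -0.77), with an adjusted p of 0.00677 to 0.397 over the alternatives. sult6b1 differed by 0.83 in this pair (95% interval 0.20 to 1.47, adjusted p = 0.231), and by 1.18 (adjusted p = 0.00461) without the libraries that stand apart. The pairs of methylated compounds and of 3-ring isomers showed no called difference in sult6b1. For sult6b1 the differences were 0.21 between 9-MA and Anthracene (95% interval -0.09 to 0.51), -0.02 between 1,5-DMN and 2-MN (-0.32 to 0.28) and 0.12 between Phenanthrene and Anthracene (-0.32 to 0.56), each at 50 µM. Phenanthrene and Anthracene were each taken relative to their own control group, DMSO_A and DMSO_B. A p that misses the threshold does not show equal responses, and the intervals give the differences that these libraries allow.

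**Figure D5:**
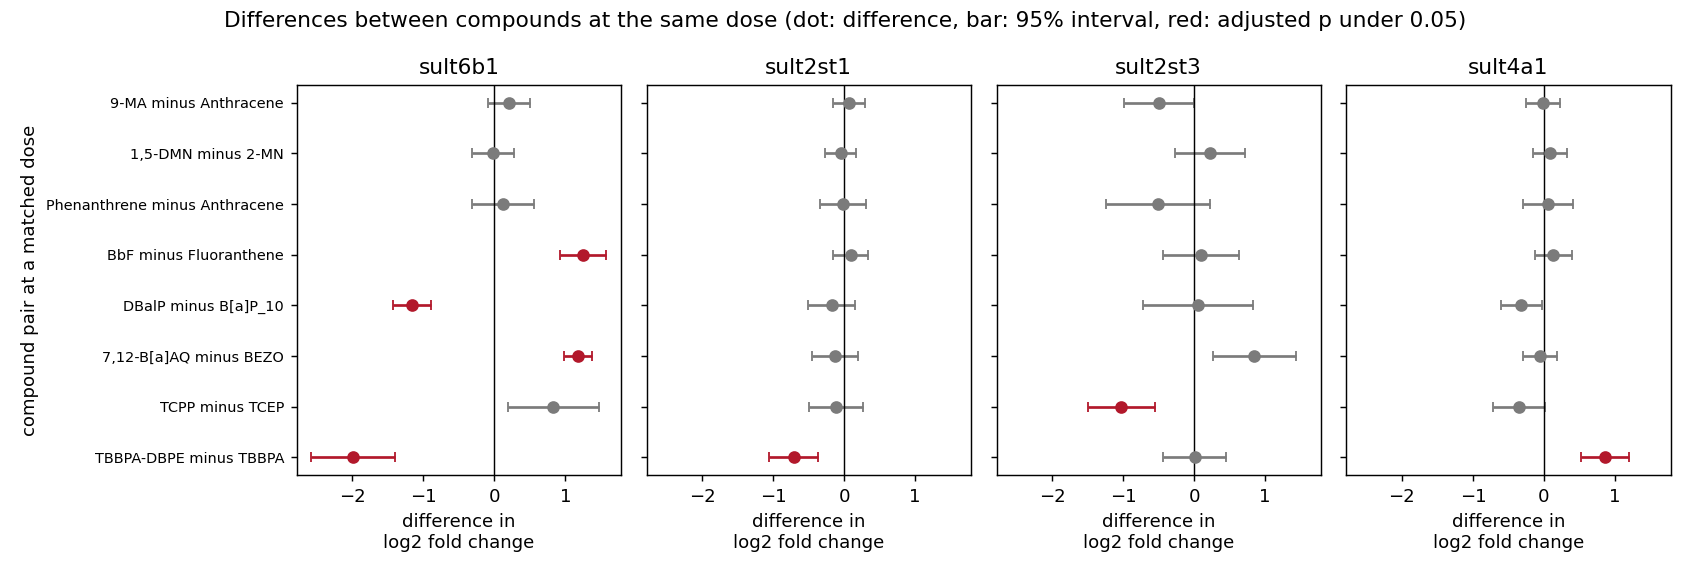
Difference in log2 fold change (x axis) between 2 compounds at the same dose, for 8 pairs (rows) and the 4 members with a called pair, with 95% intervals as bars and called differences in red. sult6b1 differed by 1.25 between BbF and Fluoranthene and by -1.98 between TBBPA-DBPE and TBBPA, and by 0.21, -0.02 and 0.12 in the upper 3 rows.

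The 2 control groups of the large aromatic hydrocarbon study were also compared in these genes. Mean sult6b1 was 304 normalized units in DMSO_A and 372 in DMSO_B. A missed threshold does not show that the 2 groups were equal. Between DMSO_A and DMSO_B, set as DMSO_A minus DMSO_B, none of the 10 members passed the test, and the log2 difference of sult6b1 was -0.29 ± 0.16 (SE, adjusted p = 0.851). For sult1st3 it was -0.89 ± 0.73, the widest of the 10.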

How the data were processed

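The authors aligned reads with STAR to GRCz11, counted them with HTSeq, dropped genes without reads in many samples, normalized with DESeq2 and deposited log2 values after a variance stabilizing transformation. The transformation was inverted, and 100% of values under 1000 reads came out whole within 0.05 reads. Gene symbols came from a RefSeq table (20411 of 21854 genes). Of 170 sample entries, those sharing lane and index differed by about as much as read sampling gives and were counted as 1, which left 144 libraries. The ratio of the observed squared difference to that expected from sampling was 0.988 to 1.067 in 31 such pairs (median 1.016). In 277 pairs of different libraries it was 1.166 to 300.0. Libraries had 6795594 to 28566824 reads on genes.

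Treatments were compared with their own DMSO groups on a log2(normalized value + 1) scale, which understates fold changes of low genes. Each study had its own model in limma 3.58.1 with a mean-variance trend (R 4.3.3). Tests were two-sided, and the Benjamini-Hochberg method was applied within each comparison. The thresholds were 0.05 for the adjusted p and, for DEGs, also 1 for the size of the log2 fold change. Other steps used Python 3.11.15, numpy 2.4.6, pandas 2.3.3 and matplotlib 3.10.9. All members were described. Other genes were named by rule: up to 3 per list among genes that were DEGs in at least 3 treatments, cyp1a, and those most correlated with each member. Genes that were DEGs in fewer treatments were named after their values were seen. Members and lists were chosen with earlier results of these data known. On simulated libraries of the TDBPP and BkF comparisons (21854 genes each), 200 of 200 genes changed by 2 on the log2 scale were found in each, with 2 and 3 unchanged genes called. Only genes with higher read numbers were changed there, and the same spread was set for all genes. The simulation therefore does not bear on smaller changes or on members with few reads.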

Additional observations from a re-analysis of the deposited data

Results flagged for a closer look

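In groups of 4 libraries, a library was singled out when its gap to the nearest of the others exceeded 0.829 of the range of the group. This held for 22 of 280 combinations of member and group (7.86%), and chance gives about 1 in 20. For sult6b1, 1 library lay below the others in TDBPP (345, against 459 to 480.0), above the others in TPP (508, against 262 to 281), above the others in BkF (2596, against 1714 to 1858), above the others in 3-NF (702, against 438 to 475) and above the others in 9-MA (748, against 477 to 509). For sult1st1, 1 library lay above the others in Acenaphthene (1441, against 1247 to 1275), above the others in 4h-CPdefP (1446, against 1395 to 1401) and above the others in TCDD (1836, against 1509 to 1547). For sult1st3, 1 library lay above the others in BkF (13.1, against 0 to 1.64) and above the others in Acenaphthene (5.11, against 0 to 0.71). For sult1st4, 1 library lay above the others in Phenanthrene (231, against 206 to 210.0) and above the others in 4h-CPdefP (277, against 202 to 212). For sult1st6, 1 library lay below the others in TBPH (3.17, against 9.99 to 10.9), below the others in IPP (1.57, against 10.3 to 11.1), above the others in Carbazole (10.1, against 3.74 to 4.55) and above the others in 1,5-DMN (14.0, against 4.65 to 5.95). For sult2st1, 1 library lay above the others in TCEP (414, against 239 to 265) and above the others in BjF (357, against 336 to 339). For sult2st2, 1 library lay above the others in Acenaphthene (127.8, against 69.1 to 77.1). For sult2st3, 1 library lay above the others in TPP (54.5, against 48.5 to 49.0) and below the others in 2-MN (20.9, against 28.8 to 29.3). For sult4a1, 1 library lay above the others in DBaiP (380.3, against 335 to 340.3). All values are normalized values per library. The sult2st2 value in Acenaphthene and the sult2st1 value in TCEP belong to libraries that also stand apart over all genes.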

How the results depend on the processing

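Over 20 alternatives, each counted only for the studies it alters, 36 called values gave 624 refitted values, of which 554 kept the call, 70 kept the direction without the call and 0 reversed, and 21 calls were kept throughout. The counts of responding comparisons (29), DEGs (16), sult6b1 DEGs (12), DEGs of the other members (4) and called pair contrasts (7) ran over 21 to 33, 14 to 16, 12 to 12, 2 to 4 and 6 to 9 when 1 library number was left out of all treatment groups or of all DMSO groups at once. Without treatment number 2 the 12 sult6b1 DEGs lost TBBPA and gained TCEP, which was lower. DEGs of the other members numbered 2 with a pseudocount of 5 and 2 on the deposited log2 values. Called pair contrasts numbered 11 without the 4 libraries that stand apart, an alternative chosen after seeing the data. With the replicate number as a block the counts were 33, 16, 12, 4 and 7, and all 29 responding comparisons were kept. The numbers were not taken to pair the libraries, since same-numbered libraries had a median correlation of 0.0211 in the FRC study, 0.0024 in the large aromatic hydrocarbon study and -0.057 in the TCDD study. In the FRC study, libraries numbered 1, 2 and 3 also share a lane by number. The replicate block was not fitted in the 2 studies with B[a]P and BEZO, whose averaged libraries carry no number of their own, and the lane block could not be fitted in the B[a]P study. Their values without a block entered these counts. With lane as a block 27 comparisons were responding. Read number limits sult1st2, sult1st3 and sult1st6. Causes of these shifts were not tested.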
